A study of Mus musculus with 10 samples.

Results

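A set of 9 genes that dendritic cells switch on as they mature and leave for lymphoid T cell zones was followed in sorted dendritic cells of mouse spleen. They were Fscn1, Cacnb3, Serpinb6b, Apol7c, Tmem123, Socs2, Il4i1, Nudt17 and Samsn1, 9 of the 53379 genes counted in each library. The genes were taken as a list of names and matched to the Ensembl identifiers of the files by symbol, and 9 of 9 were found and passed the filter on low counts. Chemokine receptors, cytokines and costimulatory genes of the same cells were kept off the list.

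The libraries came from MHC class II-high, CD11c-high cells of individual C57BL/6 mice, 16 weeks old, in a series on autophagy in a mouse model of atherosclerosis. One gate took CD11b-positive, CD8-negative cells and the other CD11b-negative, CD8-positive cells. The 4 groups were CD11b KO (Atg16l1 -/-, n = 2), CD11b WT (Atg16l1 +/+, n = 3), CD8 KO (Atg16l1 -/-, n = 2) and CD8 WT (Atg16l1 +/+, n = 3), where CD11b and CD8 are the names of the sorted subsets. Atg16l1 encodes a scaffold for attaching LC3 to membranes in autophagy. The cells in which the gene was deleted, the mice's diet and any further allele are not given in the sources used here, nor whether the CD11b and CD8 libraries of 1 number came from 1 mouse.

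Conventional dendritic cells take up antigen in the tissue and, once triggered by danger signals, by dying cells or in steady state without either, enter a mature state. In this state the cell grows long actin-rich protrusions, raises CCR7 and travels to T cells. The same state carries restraints on T cells, among them PD-L1 and amino acid-consuming enzymes, and cells in it have been called mature regulatory dendritic cells. The 9 genes cover several of these tasks. Fscn1 encodes fascin, which bundles actin in dendrites. Cacnb3 encodes a beta subunit of voltage-gated calcium channels, Serpinb6b an intracellular serine protease inhibitor, and Apol7c a member of the apolipoprotein L family. Tmem123 encodes the surface protein porimin, Socs2 and Samsn1 encode dampers of cytokine and antigen receptor signals, Il4i1 a secreted L-amino acid oxidase and Nudt17 a nudix hydrolase.

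Each library held 9467704 to 13768884 gene counts, and levels are given as CPM, counts scaled to a common library total. Atg16l1 stood at 1.73 to 3.30 CPM in the 4 KO libraries and at 13.3 to 32.6 CPM in the 6 WT libraries, so the genotype labels matched the targeted gene. The subset labels went against their markers in 10 of 10 libraries. Cd8a stood at 448 to 577 CPM under the label CD11b and at 0.904 to 5.86 CPM under the label CD8, and Itgam, which encodes CD11b, at 1.58 to 2.73 CPM and at 76.0 to 103.6 CPM. The summed level of 10 markers of type 1 conventional dendritic cells (cDC1) was 9789 to 10620 CPM under CD11b and 2636 to 3019 CPM under CD8, and that of 10 markers of type 2 cells (cDC2) was 86.0 to 92.6 and 1287 to 1529 CPM. Directions between subsets are therefore given between libraries labelled CD11b and libraries labelled CD8. CD8 KO 2 held the most B cell transcripts (2768 CPM over 12 markers, against 275 to 1159 CPM in the other 9 libraries).

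The 9 genes split into 3 patterns. Serpinb6b, Apol7c and Cacnb3 were higher under the label CD11b than under CD8 in both genotypes, as were 8.73% of the 14528 genes tested. Il4i1, Samsn1 and Tmem123 were lower under CD11b in both genotypes, as were 10.8% of all genes. Fscn1, Socs2 and Nudt17 passed the test between labels in neither genotype. In the comparison of KO with WT, 0 of 9 passed at either label, where 0.145% of all genes passed at each. In bulk libraries fewer cells of a type and less RNA per cell cannot be told apart, so none of these values says whether a mature minority or the whole subset differed. The plot of levels by library shows the values behind these statements, which follow gene by gene.

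**Figure D1:**
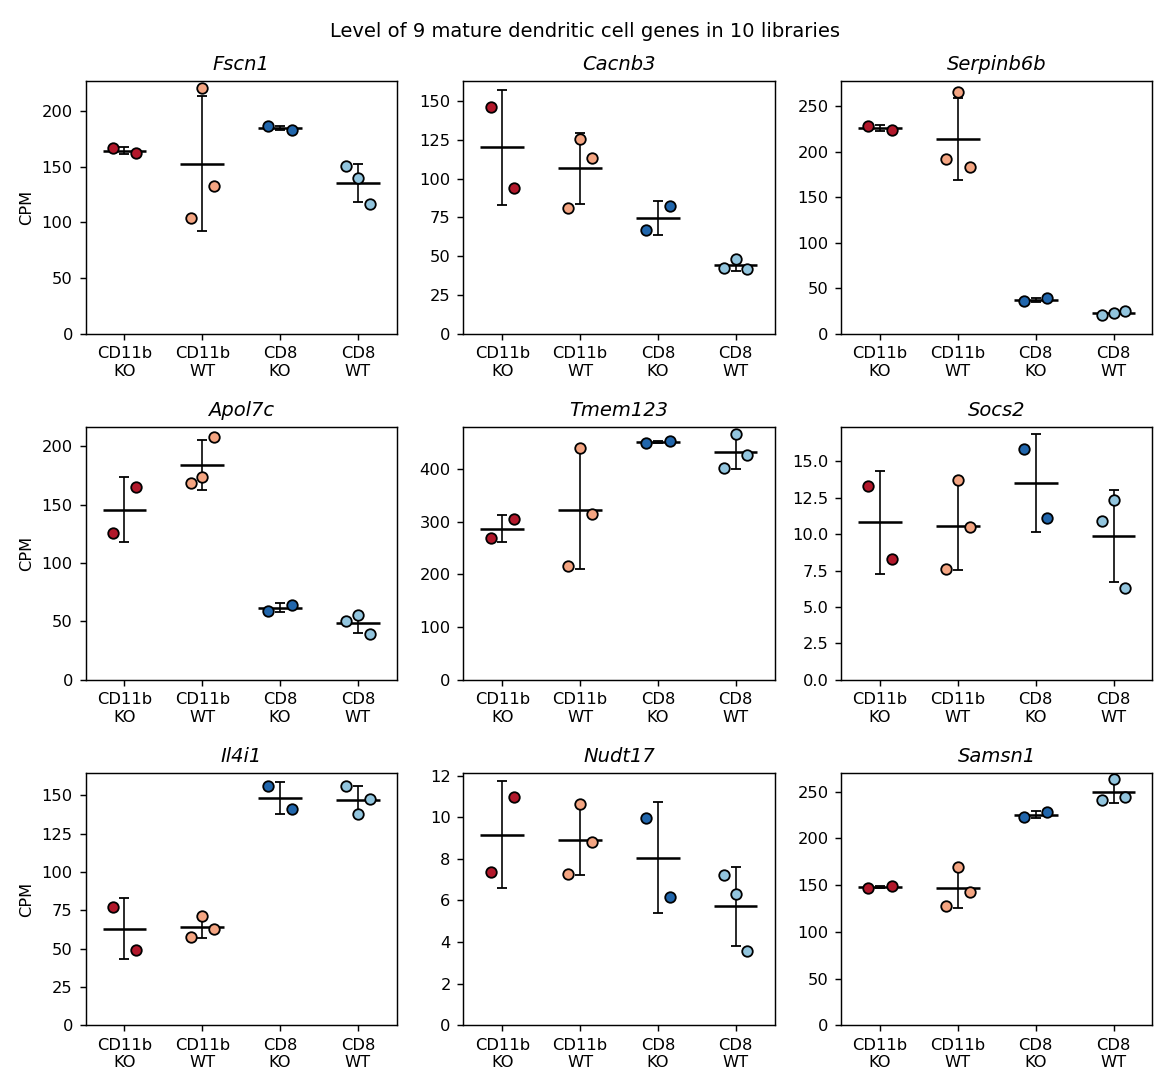
CPM (vertical axis, from 0) of the 9 genes in each library, by group, KO left of WT and the label CD11b left of the label CD8. Points are libraries, horizontal bars are means and vertical bars are ± 1 SD; Serpinb6b is above 183 CPM in the 5 libraries labelled CD11b and below 39.0 CPM in the 5 labelled CD8, while Fscn1 overlaps between labels.

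Serpinb6b (ENSMUSG00000042842, chromosome 13, 32965209 to 32979067, plus strand, GRCm38) differed most between the labels. It stood at 228.5 and 224 CPM in CD11b KO 1 and 2 and at 191, 265 and 183.5 CPM in CD11b WT 1 to 3. Under the label CD8 it stood at 36.01 and 38.9 CPM in KO 1 and 2 and at 21.1, 22.7 and 25.0 CPM in WT 1 to 3. The 2 labels did not overlap, and at the label CD8 both KO libraries lay above the 3 WT libraries. The log2 fold change of CD11b over CD8 was 2.60 ± 0.16 (SE) in KO, a 6.04-fold difference, and 3.21 ± 0.14 in WT, a 9.29-fold difference (edgeR adjusted p = 2.03e-11 and 1.97e-14). By its p it ranked 96 in KO and 41 in WT among 14528 genes.

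Apol7c (ENSMUSG00000044309, chromosome 15, 77524852 to 77533316, minus strand) followed the same direction. It was measured at 126 and 165 CPM in CD11b KO and at 169, 174 and 208 CPM in CD11b WT. The CD8 libraries gave 58.95 and 64.3 CPM in KO and 50.0, 55.4 and 39.5 CPM in WT. Every library labelled CD11b lay above every library labelled CD8. The genotypes were ordered in opposite ways, with both KO libraries below WT under CD11b and above WT under CD8. CD11b exceeded CD8 2.37-fold in KO (log2 fold change 1.24 ± 0.16 SE, edgeR adjusted p = 2.93e-06) and 3.80-fold in WT (1.93 ± 0.14, 7.87e-11).

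Cacnb3 (ENSMUSG00000003352, chromosome 15, 98630840 to 98644529, plus strand) reached 146 and 94.1 CPM in CD11b KO and 81.3, 125 and 113 CPM in CD11b WT. Under CD8 it had 66.9 and 82.2 CPM in KO and 42.5, 48.35 and 41.5 CPM in WT. Within a genotype the labels did not overlap, but CD8 KO 2 lay above CD11b WT 1. The log2 fold change of CD11b over CD8 was 0.69 ± 0.20 in KO (SE; edgeR adjusted p = 0.0120) and 1.27 ± 0.16 in WT (1.42e-06). The KO call ended without CD11b KO 1 (log2 fold change 0.34, edgeR adjusted p = 0.346) and without CD8 KO 1 (0.55, 0.149).

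Il4i1 (ENSMUSG00000074141, chromosome 7, 44816387 to 44840809, plus strand), whose product oxidises phenylalanine and other amino acids, ran the other way. It stood at 77.3 and 48.9 CPM in CD11b KO and at 57.4, 71.2 and 63.05 CPM in CD11b WT, against 156 and 141 CPM in CD8 KO and 156, 138 and 147 CPM in CD8 WT. No library labelled CD11b reached the lowest one labelled CD8, and the genotypes overlapped at both labels. The log2 fold change of CD11b over CD8 was −1.24 ± 0.17 in KO and −1.20 ± 0.14 in WT (SE; edgeR adjusted p = 4.79e-06 and 2.40e-07). Of its exon bases, 83.9% lie opposite exons of Tbc1d17 on the other strand, so the direction rests on the strand-specific counts. With counts taken without regard to strand the log2 fold change was −1.56 in KO and 1.16 in WT (edgeR adjusted p = 0.642 and 0.637).

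Samsn1 (ENSMUSG00000022876, chromosome 16, 75858793 to 76022281, minus strand), an adaptor that restrains B cell receptor signalling, had 147 and 148.5 CPM in CD11b KO and 128, 169 and 143 CPM in CD11b WT. The CD8 values were 223 and 228 CPM in KO and 241, 263 and 244.5 CPM in WT. The labels were apart in 10 of 10 libraries. The SD was 0.572% of the mean in CD11b KO (n = 2), 14.1% in CD11b WT (n = 3), 1.49% in CD8 KO (n = 2) and 4.81% in CD8 WT (n = 3). The log2 fold change of CD11b over CD8 was −0.61 ± 0.13 in KO and −0.77 ± 0.10 in WT (SE; edgeR adjusted p = 0.000732 and 2.32e-06).

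Tmem123 (ENSMUSG00000050912, chromosome 9, 7764041 to 7794333, plus strand) was the member with the most counts, 2663 to 5849 per library. It had 268 and 304 CPM in CD11b KO and 215, 440.5 and 314 CPM in CD11b WT. Under CD8 the values were 450.1 and 453 CPM in KO and 403, 467 and 426 CPM in WT. The labels were apart in KO and overlapped in WT, where CD11b WT 2 lay within the CD8 range. The log2 fold change was −0.66 ± 0.19 in KO and −0.42 ± 0.15 in WT (SE; edgeR adjusted p = 0.0121 and 0.0415). The WT call ended without CD11b WT 1 (−0.20, edgeR adjusted p = 0.242), CD11b WT 3 (−0.40, 0.114), CD8 WT 2 (−0.35, 0.169) or CD8 WT 3 (−0.43, 0.07897), and the KO call without CD11b KO 1 (−0.57, 0.117) or CD8 KO 1 (−0.66, 0.0505). With DESeq2 neither call held (adjusted p = 0.109 in KO and 0.209 in WT), nor did the WT call with only the 6 WT libraries fitted (edgeR adjusted p = 0.0551).

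Fscn1 (ENSMUSG00000029581, chromosome 5, 142960343 to 142973185, plus strand), the best known marker of mature dendritic cells in the list, did not pass between the labels. It had 167 and 162 CPM in CD11b KO and 104, 220.5 and 133 CPM in CD11b WT, against 186 and 183 CPM in CD8 KO and 150.4, 139.6 and 116 CPM in CD8 WT. In KO both CD11b libraries lay below both CD8 libraries. With so few libraries such an order can arise without a difference. Its share among all genes was not counted between labels, so nothing is drawn from it. The 3 CD11b WT libraries spanned the range of the other 7. The log2 fold change of CD11b over CD8 was −0.17 in KO (95% interval −0.60 to 0.27, edgeR adjusted p = 0.659) and 0.17 in WT (−0.18 to 0.53, 0.517).

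Socs2 and Nudt17 were the low members. Socs2 (ENSMUSG00000020027, chromosome 10, 95385362 to 95417180, minus strand), which limits signalling of growth hormone and STAT5-activating cytokines, had 13.3 and 8.32 CPM in CD11b KO, 7.58, 13.7 and 10.5 CPM in CD11b WT, 15.9 and 11.1 CPM in CD8 KO and 10.9, 12.4 and 6.33 CPM in CD8 WT. Nudt17 (ENSMUSG00000028100, chromosome 3, 96706067 to 96708562, minus strand) had 7.35 and 11.0 CPM in CD11b KO, 7.28, 10.6 and 8.82 CPM in CD11b WT, 9.95 and 6.17 CPM in CD8 KO and 7.22, 6.33 and 3.59 CPM in CD8 WT. Both rested on 38 to 193 counts per library and overlapped between labels and genotypes except for Nudt17 in WT, where the 3 CD11b libraries lay above the 3 CD8 libraries. That difference was 0.64 on the log2 scale (95% interval −0.08 to 1.37, edgeR adjusted p = 0.189), and 0.40 without CD8 WT 3. The share of all genes with such an order between labels was not counted. For Socs2 the interval between labels was −1.12 to 0.47 in KO and −0.55 to 0.76 in WT on the log2 scale.

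**Figure D2:**
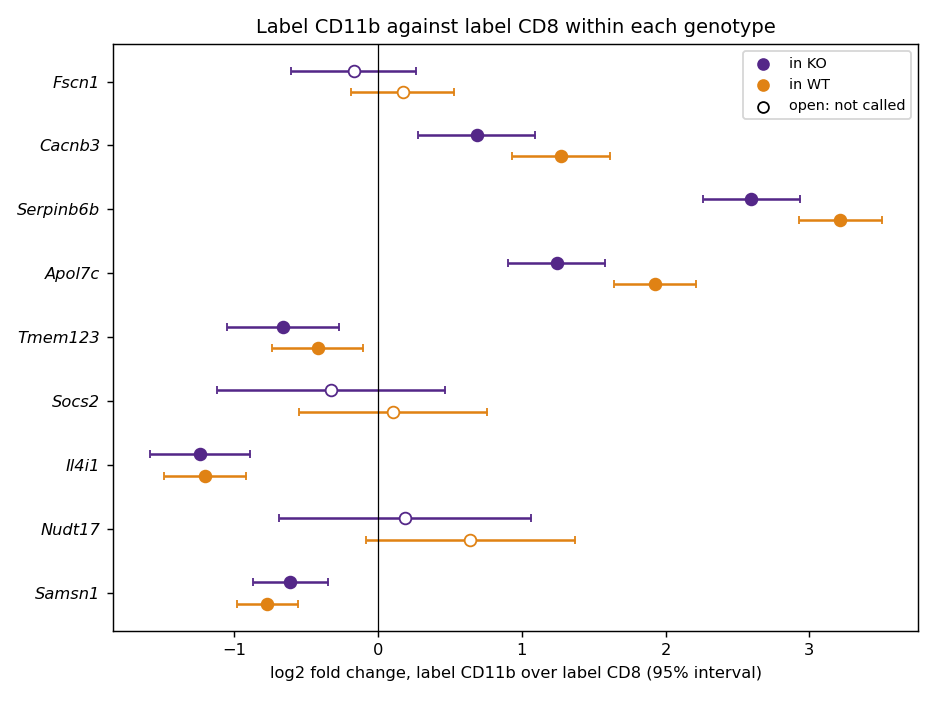
Log2 fold change of the label CD11b over the label CD8 (horizontal axis) for each of the 9 genes, in KO (upper point of each pair) and in WT (lower point), with 95% intervals. Filled points have an edgeR adjusted p under 0.05, namely Cacnb3, Serpinb6b and Apol7c to the right of 0 and Tmem123, Il4i1 and Samsn1 to the left.

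Between labels, 6 of 9 members (66.7%) were called in KO, against 22.8% of the 14528 genes tested. Of these 3 were higher, against 10.3% of all genes, and 3 lower, against 12.5%. In WT the count was again 6 of 9, against 29.5%, with 3 higher against 13.8% and 3 lower against 15.7%. The same 6 were called in both genotypes in the same direction, against 19.5% of all genes. The shares of all genes are not matched for level or SE to the members or to the lists below. Members and lists were also chosen with earlier results of these data known, so these shares are not a neutral reference. The SE of the members ran from 0.1255 to 0.422 in KO and 0.103 to 0.350 in WT. Over all genes the median SE was 0.367 in KO and 0.2995 in WT. The median log2 fold change of the 9 was −0.17 in KO and 0.17 in WT, against −0.01 and 0.00 over all genes, with members called in both directions. Markers of other cells also differed between the labels. The sum over 12 B cell markers was 275 to 617 CPM under the label CD11b and 572 to 2768 CPM under CD8, and that over 10 red pulp macrophage markers was 148.5 to 204 and 265 to 449.8 CPM. Their part in the lower Il4i1, Samsn1 and Tmem123 under CD11b was not tested.

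The 250 bases before the RefSeq start (GRCm38.p6) are printed for the pair with the largest positive and a pair of the negative differences between labels, to show the promoters of members that moved in opposite directions. Capitals mark the letters GAGGAAGT, a form of the site bound by PU.1, or their complement on the other strand. Shorter parts of it, such as GAGGAA, are not marked and also occur in the Serpinb6b window. The negative pair printed is the 2 members with a match, so this choice cannot show whether the letters go with a direction. Tmem123, also lower under CD11b, and Cacnb3, also higher, are not printed and have no match in any of their windows.
Serpinb6b, chr13:32965011-32965260, plus strand: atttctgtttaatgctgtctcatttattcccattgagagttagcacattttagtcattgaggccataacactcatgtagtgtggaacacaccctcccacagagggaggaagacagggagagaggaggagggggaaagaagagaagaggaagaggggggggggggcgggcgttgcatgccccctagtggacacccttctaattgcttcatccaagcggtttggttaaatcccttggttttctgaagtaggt
Apol7c, chr15:77533316-77533565, minus strand: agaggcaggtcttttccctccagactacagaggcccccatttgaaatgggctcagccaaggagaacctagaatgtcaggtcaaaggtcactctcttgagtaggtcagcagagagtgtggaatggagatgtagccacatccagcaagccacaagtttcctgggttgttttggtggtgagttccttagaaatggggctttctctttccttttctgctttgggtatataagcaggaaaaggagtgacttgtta
Il4i1, chr7:44836038-44836287, plus strand: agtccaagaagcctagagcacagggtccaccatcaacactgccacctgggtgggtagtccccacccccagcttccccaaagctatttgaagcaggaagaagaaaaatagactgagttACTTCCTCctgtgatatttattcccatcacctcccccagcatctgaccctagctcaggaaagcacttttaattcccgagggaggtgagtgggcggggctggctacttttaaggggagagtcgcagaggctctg
Samsn1, chr16:75909267-75909516, minus strand: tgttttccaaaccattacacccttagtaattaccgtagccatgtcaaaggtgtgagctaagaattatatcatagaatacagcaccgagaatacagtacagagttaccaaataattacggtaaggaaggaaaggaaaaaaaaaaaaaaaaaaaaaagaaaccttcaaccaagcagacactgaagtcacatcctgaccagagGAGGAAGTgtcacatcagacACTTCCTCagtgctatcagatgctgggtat
GAGGAAGT was found in 2 of the 8 members with a window, 2 times in Samsn1, starting 50 bases before the start and, on the other strand, 30 bases before it, and once in Il4i1, on the other strand, 133 bases before it. Of 32851 promoter windows of this length 2.44% hold it on either strand. The windows of Samsn1 and Il4i1 lie inside the gene spans given above, so they belong to internal starts. Whether these starts were used in these cells was not tested. The letters TTCNNNGAA, the STAT site, were searched on both strands and were in 0 of the 8 members' windows, against 7.02% of all windows. A form of the NF-kappaB site was searched in the same way and was also in 0 of the 8, against 1.21% of all windows. A match is a description of letters and no match says only that these letters are not in this window. Socs2 had no window in the table.

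Levels are comparable between genes only per length, here as CPM per kilobase of exon. On that scale Serpinb6b led in CD11b KO (99.98 ± 1.44, SD, n = 2), followed by Tmem123 (92.1 ± 8.21) and Apol7c (70.7 ± 13.5). Tmem123 (103.9 ± 36.4, SD, n = 3), Serpinb6b (94.3 ± 19.9) and Apol7c (89.2 ± 10.4) led in CD11b WT, where neighbours in this order overlapped. Under the label CD8 Tmem123 stood alone at the top, with 145 ± 0.566 in KO and 139 ± 10.5 in WT. Fscn1 (61.3 ± 0.707) and Samsn1 (45.7 ± 0.679) followed in CD8 KO without overlap, and Samsn1 (50.6 ± 2.43) and Fscn1 (45.0 ± 5.80) in CD8 WT, where their libraries overlapped. Serpinb6b was in seventh place in both CD8 groups, at 16.6 ± 0.891 in KO and 10.15 ± 0.870 in WT, overlapping Cacnb3 in each. Nudt17 (2.55 to 4.09 as group means) and Socs2 (1.03 to 1.42) were the lowest 2 in each of the 4 groups. By level per kilobase 7 of the 9 stood above at least 76.6% of tested genes in every group, while Nudt17 and Socs2 stood above 46.9% to 57.5% and 30.7% to 34.9%.

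The question of the genotype comparison is what the loss of Atg16l1 changed within a subset. At the label CD11b, 0 of the 9 members passed (0.145% of all genes did), with 1 at an unadjusted p under 0.05 against 6.42% of all genes, and 0 with DESeq2 or limma-voom. The member with the smallest p was Apol7c, with a log2 fold change of KO over WT of −0.33 ± 0.15 (SE; 95% interval −0.64 to −0.03, edgeR adjusted p = 0.727) and KO libraries that lay below the WT libraries, as for 10.1% of all genes. The value was −0.15 without CD11b KO 1 and −0.54 without CD11b KO 2. The other 8 overlapped between KO and WT, with log2 fold changes of −0.17 (Tmem123) to 0.17 (Cacnb3). The intervals reached from −0.22 to 0.25 for Samsn1, the narrowest, and from −0.75 to 0.84 for Nudt17, the widest. The median of the 9 was 0.03, against −0.01 over all genes.

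At the label CD8, 0 of the 9 members passed with edgeR (0.145% of all genes did), and 4 had an unadjusted p under 0.05, against 6.53% of all genes. These 4 were Serpinb6b, Cacnb3, Fscn1 and Apol7c. They were also the 4 of the 9 members in which both KO libraries lay above the 3 WT libraries, against 12.1% of all genes. A small p and such an order go together, so the order adds no separate result. Serpinb6b averaged 37.4 ± 2.02 CPM (SD, n = 2) in KO and 22.95 ± 1.96 CPM (SD, n = 3) in WT, a log2 fold change of 0.70 ± 0.15 (SE; 95% interval 0.39 to 1.02) and an edgeR adjusted p of 0.0647. Cacnb3 averaged 74.5 ± 10.8 CPM in KO and 44.1 ± 3.72 CPM in WT, with 0.76 ± 0.18 (0.38 to 1.13; edgeR adjusted p = 0.123). Fscn1 had 0.45 ± 0.19 (edgeR adjusted p = 0.673) and Apol7c 0.35 ± 0.15 (0.673).

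Whether Serpinb6b and Cacnb3 passed depended on the test. DESeq2 called 2 members, Serpinb6b (adjusted p = 0.0102) and Cacnb3 (0.0430), and limma-voom 0 (adjusted p = 0.215 and 0.0836). With no filter on low counts edgeR called both (adjusted p = 0.000196 and 0.0001005), and with only the 5 libraries labelled CD8 fitted it called Cacnb3 (0.0109). Without CD11b WT 1, which enters the edgeR model through the shared estimate of the spread, both passed (edgeR adjusted p = 0.0478 and 0.0493). Serpinb6b also passed without CD11b WT 2 (edgeR adjusted p = 0.0104). Without CD8 KO 2, the library with the most B cell transcripts, the log2 fold changes were 0.65 and 0.61 (edgeR adjusted p = 0.577 and 1). The B cell sum was 1033 and 2768 CPM in CD8 KO 1 and 2 and 572 to 1159 CPM in CD8 WT, and the red pulp macrophage sum was 437 and 449.8 CPM in CD8 KO and 265 to 356.5 CPM in CD8 WT. Both CD8 KO libraries also lay above the 3 CD8 WT libraries in the sum over 6 plasma cell markers (131 and 180 CPM in KO, 108 to 127 CPM in WT) and over 9 plasmacytoid dendritic cell markers (154.5 and 215 CPM in KO, 138 to 153 CPM in WT). The plasmacytoid markers did not move together, and 5 of the 9 had a positive log2 fold change. Group means in CD8 KO and CD8 WT were 0.853 and 1.69 CPM for Siglech, 13.4 and 14.4 CPM for Bst2 and 5.26 and 6.02 CPM for Ccr9. Of the 12 B cell markers, 12 had a positive log2 fold change (median 1.22) and 9 an unadjusted edgeR p under 0.05. Of the 10 red pulp macrophage markers these were 9 (median 0.59) and 5, where 6.53% of all genes had such a p. In these 2 lists edgeR called 0, DESeq2 0 and 1, and limma-voom 2 and 3. Of single markers, Cox6a2 of the plasmacytoid list (log2 fold change 4.66, edgeR adjusted p = 0.0372) and Irf4 of the cDC2 list (0.67, 0.0269) passed. The part of these cells in the fold changes of Serpinb6b and Cacnb3 was not tested.

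The other 5 members did not pass at the label CD8 either. Samsn1 was the only one of the 9 with a negative log2 fold change, −0.15 (95% interval −0.38 to 0.09, edgeR adjusted p = 0.926), and both KO libraries lay below the WT libraries, as for 11.9% of all genes. Socs2 and Nudt17 had 0.45 (−0.27 to 1.17) and 0.50 (−0.31 to 1.30). Without CD8 KO 1 these values were 0.17 and 0.11, without CD8 KO 2 they were 0.69 and 0.81, and without CD8 WT 3 they were 0.21 and 0.25. Il4i1 and Tmem123 had 0.01 (−0.30 to 0.32) and 0.06 (−0.29 to 0.42). Over the 9 members the median was 0.45, with 8 positive, against a median of 0.00 and 50% positive over all genes.

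**Figure D3:**
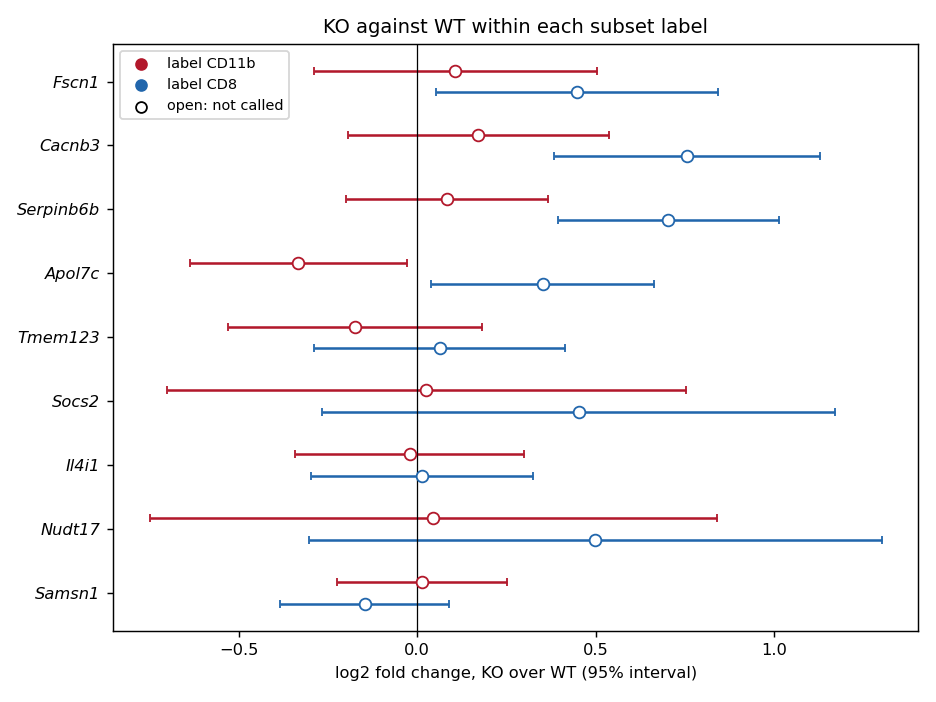
Log2 fold change of KO over WT (horizontal axis) for each of the 9 genes at the label CD11b (upper point) and at the label CD8 (lower point), with 95% intervals. Open points did not pass, which holds for all 18, and the interval lies above 0 for Fscn1, Cacnb3, Serpinb6b and Apol7c at the label CD8 and below 0 for Apol7c at the label CD11b.

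The difference of the KO effects between the labels (CD11b minus CD8) was tested directly. With edgeR 0 of 9 members passed, against 0.0206% of all genes, 3 had an unadjusted p under 0.05 against 5.46%, and DESeq2 and limma-voom called 0. Those 3 were Apol7c (−0.69 ± 0.21 SE; 95% interval −1.12 to −0.25, edgeR adjusted p = 0.829), Serpinb6b (−0.62 ± 0.20; 0.829) and Cacnb3 (−0.59 ± 0.25; 0.867). The value of Cacnb3 was −0.94 without CD11b KO 1 and −0.30 without CD11b KO 2. The other 6 ran from −0.45 for Nudt17 to 0.16 for Samsn1, and Fscn1 (−0.34), Tmem123 (−0.24) and Il4i1 (−0.04) changed sign when CD11b WT 2 was left out, to 0.02, 0.05 and 0.05. Over the 9 members the median was −0.43, with 8 negative, against a median of −0.02 over all genes. Apol7c, Serpinb6b and Cacnb3 are also the 3 that were higher under the label CD11b, and the 2 comparisons share all 10 libraries. By its definition the difference of the KO effects equals the difference between labels in KO minus that in WT. The values that follow for these 3 are therefore the same result in another form. The difference between labels in these genes was 2.60, 1.24 and 0.69 on the log2 scale in KO for Serpinb6b, Apol7c and Cacnb3, and 3.21, 1.93 and 1.27 in WT.

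The WT libraries labelled CD11b varied together in these genes. Of the 9 members, 8 were lowest in CD11b WT 1 and 8 highest in CD11b WT 2, while over all genes tested 34.5% were lowest in CD11b WT 1 and 32.6% highest in CD11b WT 2. The exceptions were Serpinb6b, lowest in CD11b WT 3, and Apol7c, highest there. The summed level of the 9 was 961, 1490 and 1177 CPM in CD11b WT 1 to 3, against 1050 to 1207 CPM in the other 7 libraries. Among 36 other genes of mature dendritic cells, 21 were lowest in CD11b WT 1 and 26 highest in CD11b WT 2. CD11b WT 1 also had the most genes with a count, 20918. At the label CD8, CD8 WT 3 was the lowest WT library for 5 of the 9 members and 23 of the 36 other genes, against 31.9% of all genes, and CD8 WT 2 the highest for 5 and 19, against 32.6%. The number of mature cells in each library was not measured.

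Genes closest to a member in profile were ranked by the root mean square difference of log2 CPM over the 10 libraries, each gene centred on its mean, among 8665 protein-coding genes of at least 5 CPM. Nearest to Serpinb6b was Ly75, which encodes the uptake receptor DEC-205, at 0.161, followed by Zc3h12c (0.208) and Gusb (0.232), where Serpinb6b itself varied by 1.495 about its mean. Apol7c lay nearest to Cpd (0.173), Il4i1 to Foxn3 (0.145) and Samsn1 to Ankrd44 (0.0750). Cacnb3 lay nearest to Eml6 (0.212), Tmem123 to Pnrc1 (0.136), Fscn1 to Rad54l2 (0.163), Socs2 to Zmat3 (0.164) and Nudt17 to Emc4 (0.204). Between members, Socs2 and Fscn1 were close (0.247, Fscn1 being ninth of 14527 genes for Socs2), as were Tmem123 and Samsn1 (0.190).

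Relatives of the members were compared from family lists, in which 14 of 45 genes were called between labels in KO and 17 of 45 in WT, against 22.8% and 29.5% of all genes. Of the other clade B serpins, 8 were tested, and Serpinb8, Serpinb9 and Serpinb2 were higher under CD11b in both genotypes. The KO call of Serpinb2 ended without CD11b KO 2 (edgeR adjusted p = 0.0506) or CD8 KO 2 (0.112). Serpinb9, the inhibitor of granzyme B, averaged 290.1 ± 27.7 CPM (SD, n = 2) in CD11b KO and 274 ± 40.0 CPM (SD, n = 3) in CD11b WT, against 87.3 ± 13.4 CPM in CD8 KO and 62.7 ± 12.0 CPM in CD8 WT. Its log2 fold change of CD11b over CD8 was 1.73 ± 0.16 in KO and 2.13 ± 0.14 in WT (SE; edgeR adjusted p = 1.79e-08 and 1.43e-11). Serpinb6a, the nearest relative of Serpinb6b by name, stood at 3.32 to 9.65 CPM in CD11b KO, 6.31 to 8.51 CPM in CD11b WT, 10.1 to 10.95 CPM in CD8 KO and 8.88 to 14.2 CPM in CD8 WT, and did not pass in either genotype. Without CD11b KO 2 it passed in KO (log2 fold change −1.66, edgeR adjusted p = 0.0237).

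Of the 12 other apolipoprotein L genes listed, 2 passed the filter on low counts. Apol10b was higher under CD11b, with 22.0 ± 2.82 CPM in CD11b KO and 4.12 ± 1.06 CPM in CD8 KO, and 20.5 ± 2.85 CPM in CD11b WT and 3.73 ± 0.965 CPM in CD8 WT (log2 fold change 2.42 and 2.45, edgeR adjusted p = 8.09e-06 and 2.87e-07). Apol7a, Apol7b and Apol7d had no count in either WT group. Reads that map to more than 1 place were not counted, so values of genes with close copies rest on their unique part.

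Calcium channel genes moved with Cacnb3 in part. Cacna1e, which encodes the pore of R-type channels, averaged 358 ± 67.3 CPM in CD11b KO and 24.95 ± 1.11 CPM in CD8 KO, and 303 ± 33.0 CPM in CD11b WT and 27.3 ± 7.63 CPM in CD8 WT (log2 fold change 3.84 and 3.48, edgeR adjusted p = 5.69e-13 and 3.17e-14). Cacnb2 was higher under CD11b (12.4 CPM in CD11b KO and 0.882 CPM in CD8 KO, 11.8 CPM in CD11b WT and 0.403 CPM in CD8 WT) and Cacnb4 lower (0.201 and 2.65 CPM in KO, 0.353 and 5.27 CPM in WT). In each genotype these 3 were called, and in WT also Cacna1s (0.95). The KO call of Cacnb4, which rests on 4 and 63 counts under CD11b and CD8, ended without CD11b KO 2 (edgeR adjusted p = 0.176), CD8 WT 2 (0.0568) or CD8 KO 1 (0.109).

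Socs2 passed in neither genotype, while other members of its family did. Socs1, Socs3 and Cish were lower under CD11b in both genotypes, Socs3 with 17.6 ± 0.595 CPM in CD11b KO and 82.6 ± 19.6 CPM in CD8 KO, and 17.5 ± 2.31 CPM in CD11b WT and 60.8 ± 3.73 CPM in CD8 WT. In KO, Socs5 was higher under CD11b (0.98). These KO calls, apart from that of Socs3, ended when single libraries were left out. Without CD8 KO 2 the edgeR adjusted p was 0.342 for Socs1, 0.111 for Cish and 0.251 for Socs5, and without CD11b KO 2 it was 0.154, 0.239 and 0.0894. Sash1 and Sash3, the relatives of Samsn1, were also lower under CD11b in both genotypes, with log2 fold changes of −2.19 and −0.94 in KO and −2.65 and −0.80 in WT. Among the other nudix genes 1 of 17 was called in KO and 4 of 17 in WT, against 22.8% and 29.5% of all genes. Nudt9 was higher under CD11b in both genotypes (2.55 in KO and 2.04 in WT), and in WT Nudt14 was higher (0.78) and Nudt4 (−0.51) and Nudt18 (−1.03) were lower. The calls of Nudt14 and Nudt4 ended when single libraries were left out, Nudt14 without CD11b WT 3 (edgeR adjusted p = 0.0627) or CD8 WT 1 (0.0674), and Nudt4 without CD11b WT 2 (0.0866), CD8 WT 2 (0.106) or CD8 WT 3 (0.0609). Fscn2 and Fscn3, the other fascins, did not pass the filter. In the comparison of KO with WT 0 of the 45 relatives tested passed at either label with edgeR, DESeq2 or limma-voom, and 3 at the label CD11b and 6 at the label CD8 had an unadjusted edgeR p under 0.05, against 6.42% and 6.53% of all genes.

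Genes that share a task with a member were read from 3 further lists. Among 11 actin-organising genes other than Fscn1, 7 were called in KO and 7 in WT, each time 5 higher and 2 lower under CD11b. Of all genes 22.8% were called in KO and 29.5% in WT. Fmnl2, a formin that elongates actin filaments, averaged 419.6 ± 29.05 CPM (SD, n = 2) in CD11b KO and 56.8 ± 4.16 CPM (n = 2) in CD8 KO, and 425 ± 36.25 CPM (n = 3) in CD11b WT and 57.1 ± 9.79 CPM (n = 3) in CD8 WT. Actn1, Evl, Vil1 and Lima1 were higher as well, and Fmnl1 and Vasp lower, where the KO call of Fmnl1 ended without CD8 KO 1 (edgeR adjusted p = 0.145). Lima1, which encodes the filament cross-linker EPLIN, was also the only gene of these lists called between genotypes. At the label CD8 it averaged 38.9 ± 3.84 CPM in KO and 19.2 ± 4.04 CPM in WT, and both KO libraries (36.2 and 41.6 CPM) lay above the 3 WT libraries (14.55 to 21.6 CPM). Its log2 fold change of KO over WT was 1.02 ± 0.16 (SE; edgeR adjusted p = 0.00325), and it was called under each of 19 alternatives (adjusted p at most 0.0492). At the label CD11b the value was −0.20 ± 0.15 (0.882), and the difference between the labels was −1.22 ± 0.22 (0.0523). That difference passed under 6 of 18 alternatives, among them DESeq2 (adjusted p = 0.00219), no filter on low counts, unstranded counts and a replicate block (edgeR adjusted p = 0.0145), and the adjusted p ran up to 0.269.

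Of 11 STAT5 target genes other than Socs2, 8 were called in KO, 2 higher and 6 lower under CD11b, and 10 in WT, 2 higher and 8 lower, against the same shares of all genes, 22.8% and 29.5%. The list shares Socs1, Socs3 and Cish with the SOCS family. Id2, a regulator needed by cDC1, averaged 540.2 ± 32.5 CPM in CD11b KO and 173 ± 28.55 CPM in CD8 KO, and 459 ± 93.8 CPM in CD11b WT and 134 ± 12.4 CPM in CD8 WT. Bcl2l1, a survival gene, was higher too (log2 fold change 1.51 in KO and 1.68 in WT), and Ccnd2, a cyclin, was lower (−3.18 and −2.79). Of 5 enzymes of amino acid breakdown other than Il4i1, 1 was called in each genotype with edgeR, while DESeq2 and limma-voom each called 1 in KO and 3 in WT. It was Kynu, of the kynurenine pathway, in WT (−0.82, edgeR adjusted p = 0.00165), and Dao, another amino acid oxidase, in KO, where it had 0 counts under CD11b and 28 under CD8. The KO call of Dao ended without either CD11b KO library, without CD8 KO 1 and without any of the 3 CD8 WT libraries (edgeR adjusted p from 0.0517 to 0.165), and in WT Dao passed without CD11b WT 2 (0.0327). Ido1, often named with Il4i1, had 41, 22, 4 and 9 counts in CD11b KO, CD11b WT, CD8 KO and CD8 WT.

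Other genes of the mature state were taken from a list of 38, of which 36 were tested. Between labels 22 were called in KO, 6 higher and 16 lower under CD11b, and 24 in WT, 8 higher and 16 lower. That is 61.1% and 66.7%, against 22.8% and 29.5% of all genes, with a median of −0.36 in KO and −0.14 in WT. Il12b, which encodes a subunit of interleukin-12, had a log2 fold change of 1.94 in KO and 2.80 in WT, and Adam8, a surface protease, 2.45 and 2.64. Tbc1d4, a Rab GTPase-activating protein, had −2.00 and −1.98, and Relb, a subunit of NF-kappaB, −1.15 and −1.45. Ccr7, which guides mature cells to T cell zones, averaged 279.7 ± 2.64 CPM in CD11b KO and 577 ± 1.25 CPM in CD8 KO, and 292.5 ± 46.4 CPM in CD11b WT and 469.8 ± 27.3 CPM in CD8 WT. Like the 9 members, these genes included some called in each direction.

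**Figure D4:**
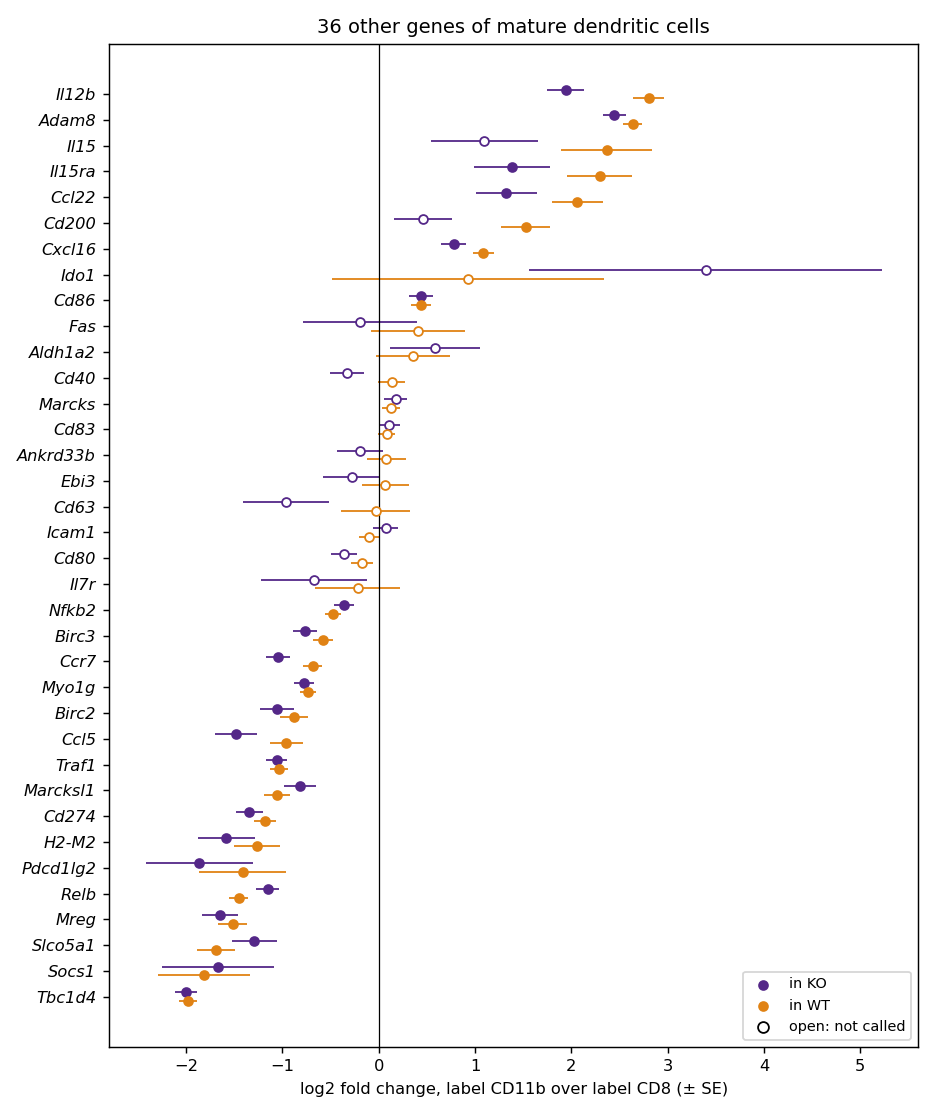
Log2 fold change of the label CD11b over the label CD8 (horizontal axis, bars ± SE) for 36 other genes of mature dendritic cells, in KO (upper point) and in WT (lower point), ordered by the value in WT. Filled points passed; Il12b and Adam8 stand at the top right and Tbc1d4 at the bottom left.

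In the comparison of KO with WT 0 of these 36 passed at either label with edgeR. At an unadjusted p under 0.05 there were 4 at the label CD11b and 10 at the label CD8, against 6.42% and 6.53% of all genes. DESeq2 called 1 at the label CD8, Adam8 (adjusted p = 0.0499), and limma-voom called 0 at either label. The smallest p at the label CD8 belonged to Adam8 (log2 fold change 0.40, edgeR adjusted p = 0.196), Il12b (0.62, 0.289), Cd200 (0.86, 0.423) and Cd83 (−0.30, 0.453). With no filter on low counts edgeR called Adam8 (adjusted p = 0.0138) and Il12b (0.00265), and Il12b also passed without CD8 WT 2 (edgeR adjusted p = 0.0200). Medians were −0.02 and 0.18, against −0.01 and 0.00 over all genes. Lamp3 and Ccl17, the 2 genes not tested, had 4 and 1 counts in CD11b KO, 19 and 5 in CD11b WT, 0 and 7 in CD8 KO and 0 and 12 in CD8 WT.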

How the data were processed

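The authors' deposited files hold whole-number counts of reads for each gene, one file for each library, made with STAR 2.5.0a on the build GRCm38 (per the submitters' processing notes). Each gives counts without regard to strand and for each strand, and the strand used here had 16.1 times the sum of the other. Library preparation used a strand-specific total RNA kit, per the labels' protocols. The annotation release and duplicate handling are not given in the sources used here. Of reads, 21.73% to 25.53% mapped to several places and were not counted. Symbols and positions came from GENCODE M21, which holds 53274 of the 53379 identifiers, and promoter windows from RefSeq (GRCm38.p6).

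The 10 libraries were grouped by their labels. filterByExpr left 14528 genes. An edgeR 4.0.16 quasi-likelihood model with 4 group means, TMM scaling and Benjamini-Hochberg adjustment over all genes was called under 0.05; CPM used the same library sizes, and log2 profiles a pseudocount of 0.5 CPM. Named genes were the 9 members, called or smallest-p genes of the lists (at most 4 a comparison), relatives and the nearest profiles. Members and lists were chosen with earlier results of these data known. The model was checked on simulated counts in which a gene had the same share of counts in all groups, apart from planted changes. The check therefore lacks the difference between labels and does not give the power to detect KO effects in these data. Alternatives were RLE factors, 2 other filters, unstranded counts, DESeq2 1.42.0, limma-voom (limma 3.58.1), left-out libraries, a replicate block and fits of only the groups compared. R 4.3.3 was used. Counting intervals are not given.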

Additional observations from a re-analysis of the deposited data

Results flagged for a closer look

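Counts on the strand opposite to Cacnb3 were, relative to the library total, higher in both CD11b KO libraries than in the 3 CD11b WT libraries. The lower KO library, CD11b KO 1, had 0.697 such counts when scaled to the library total as CPM, against 0.695 in CD11b WT 1. The counts were 7 and 20 in CD11b KO and 9, 5 and 3 in CD11b WT. Opposite Fscn1 the same held at the label CD8, where the lower KO library had 1.003 CPM and the counts were 32 and 11 in CD8 KO and 9, 0 and 3 in CD8 WT. On the TMM library sizes used for the levels, a scaling added after seeing the data, Fscn1 no longer kept this order (0.956 CPM in CD8 KO 2 and 0.970 CPM in CD8 WT 1), while Cacnb3 did (0.705 CPM in CD11b KO 1 and 0.682 CPM in CD11b WT 1). Of genes with more than 3 opposite-strand counts in both KO libraries, 19% at the label CD11b and 24.9% at CD8 had KO above WT by total counts. This floor was set on the KO libraries, the side then scored as higher, so these shares are not a neutral reference. The 2 genes were flagged from among the 9 members at 2 labels. Socs2 at the label CD8 fell below the floor, with 3 and 1 counts in KO and 0 in each WT library. Counts opposite Cacnb3 and Fscn1 lie outside the strand column used and make up 0.76% and 0.551% of the counts on both strands of these genes over all libraries.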

How the results depend on the processing

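The number of libraries, 2 or 3 a group, limits every comparison, and Socs2 and Nudt17 rest on few counts. Where leaving out a library left 1 in a group, that library was taken to vary like the other groups. Between labels, Serpinb6b, Apol7c and Samsn1 were called in both genotypes under each of 19 alternatives, and the counts of genes called, 3312 in KO and 4285 in WT, stayed within 1.5 times. For KO against WT, 21 genes were called at the label CD11b, 21 at CD8 and 3 for the difference of the KO effects. RLE factors and a filter of 1 CPM in 3 libraries kept these counts within 1.5 times. With no filter they were 71, 142 and 41, with 2 members called at CD8. With DESeq2 they were 42, 59 and 12, again with 2 members at CD8. Limma-voom called 63 genes at CD8, and fitting only the 5 libraries labelled CD8 gave 78 genes and 1 member. Unstranded counts gave 6 genes for the difference, a log2 fold change of Samsn1 in KO over WT at CD11b of −3.685e-06, and one of Il4i1 between labels in WT of 1.16, where Tbc1d17 overlaps it on the other strand. Without CD11b WT 1 and CD8 KO 2 together, 13 genes were called at CD11b, KO over WT there was −0.10 for Fscn1, −0.16 for Socs2, −0.077 for Nudt17 and −0.069 for Samsn1, and Nudt17 between labels in KO was −0.11. Leaving out each library in turn gave 7 (without CD8 KO 2) to 53 (without CD8 KO 1) genes and 0 to 2 members at CD8, 3 to 8 genes for the difference and 14 to 29 genes at CD11b. KO over WT at CD11b then ran from −0.11 to 0.47 for Fscn1, −0.18 to 0.46 for Cacnb3, −0.014 to 0.27 for Serpinb6b, −0.40 to 0.12 for Tmem123, −0.35 to 0.33 for Socs2, −0.39 to 0.27 for Il4i1, −0.28 to 0.30 for Nudt17 and −0.077 to 0.13 for Samsn1. At CD8 it ran from −0.062 to 0.091 for Il4i1, 0.17 to 0.69 for Socs2, 0.11 to 0.81 for Nudt17, 0.22 to 0.47 for Apol7c and 0.015 to 0.13 for Tmem123. The difference of the KO effects ran from −0.56 to 0.024 for Fscn1, −0.46 to 0.053 for Tmem123, −0.40 to 0.26 for Il4i1, −0.94 to −0.30 for Cacnb3, −0.80 to −0.125 for Socs2, −0.775 to −0.070 for Nudt17 and 0.071 to 0.27 for Samsn1. Between labels the range was −0.19 to 0.39 for Fscn1 and −0.14 to 0.31 for Socs2 in WT, and −0.13 to 0.57 for Nudt17 and −0.70 to −0.022 for Socs2 in KO. No value that changed sign was called after the change, and of these only Il4i1 between labels in WT had been called before it. The cause of these changes was not tested. Scaling by total counts without TMM moved 5 of 36 group means by more than 1 SD, to 192 CPM for Fscn1, 469.7 CPM for Tmem123 and 234.5 CPM for Samsn1 in CD8 KO, and to 222.5 CPM for Serpinb6b and 145.5 CPM for Samsn1 in CD11b KO. With a replicate block, 8 genes were called for the difference, Socs2 and Nudt17 in KO over WT at CD11b were −0.13 and −0.11, and no member's call changed, while Kynu between labels in KO, Socs5 between labels in WT and Lima1 for the difference passed. Deviations of same-numbered libraries of 1 genotype correlated at 0.0249 to 0.0554 and those of different numbers at −0.0523 to −0.000545, but this order held only within a genotype, since CD11b WT 3, CD8 WT 2 and CD8 WT 3 each correlated better with a KO library of another number (0.0457, 0.0308 and 0.0522). CD11b KO 1 correlated at 0.05235 with CD8 KO 1 and at −0.05235 with CD8 KO 2. Such values mirror each other, so those of different numbers are not a second observation. Of 79 fold changes of genes other than the members, chosen after their values were seen and without the nearest profiles, 61 kept their side of the threshold under every alternative and 0 changed sign. The test for a library far from its group was not run, since it needs groups of at least 4.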
